A study of Mus musculus with 24 samples.

Results

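The 10 genes described here belong to the canonical Wnt pathway: the ligand genes *Wnt7a* and *Wnt7b*, the R-spondin receptor genes *Lgr4*, *Lgr5* and *Lgr6*, the TCF/LEF transcription factor genes *Lef1*, *Tcf7*, *Tcf7l1* and *Tcf7l2*, and the feedback gene *Axin2*. They were chosen by gene symbol, 10 of the 26411 genes counted, and the set was chosen by a measured value, because *Lgr5* had been noted for a large rise in differentiating *Kat6a*-/- cells. In the contrasts that contain those differentiating *Kat6a*-/- libraries the *Lgr5* values are therefore a description with no test, and counts of called genes are given over the other 9. Differentiating wildtype libraries are the level that rise is set against, so *Lgr5* contrasts with them are described as well, though counts there include it. The cells were neural stem and progenitor cells (NSPCs) from the dorsal telencephalon of E12.5 C57BL/6 mouse embryos, the precursor of the cerebral cortex, and each library came from 1 embryo. The 3 genotypes came from crosses of heterozygous parents: wildtype *Kat6a*+/+, *Kat6a*+/- with 1 null allele, and *Kat6a*-/- with a germline deletion of *Kat6a* exons on both alleles. *Kat6a* encodes a histone acetyltransferase, and a germline allele affects every cell of the embryo, not only the NSPCs. Cells of each genotype were grown for 3 days either proliferating, with FGF2 and EGF, or differentiating, with serum on a poly-L-ornithine and laminin coat, with 4 libraries in each of the 6 groups and 24 in all. The proliferating RNA had been extracted with another kit than the differentiating RNA and the effects of kit and culture cannot be told apart.

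Wnt ligands bind Frizzled receptors and LRP co-receptors, which stops the destruction complex from degrading beta-catenin. Beta-catenin then enters the nucleus, binds TCF/LEF factors and turns on target genes, of which *Axin2* is a widely used readout and also an inhibitor, since AXIN2 rebuilds the destruction complex. LGR receptors bind R-spondins, which removes the ubiquitin ligases RNF43 and ZNRF3 and so keeps Frizzled at the cell surface. In the developing cortex Wnt signals help to pattern the dorsal telencephalon and to balance the division of progenitors with the formation of neurons, and *Wnt7a* and *Wnt7b* are the ligand genes best known from cortical progenitors.

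In the GRCm39 assembly, with the GENCODE annotation, *Wnt7a* lies on chromosome 6 at 91340959 to 91388460 on the minus strand and *Wnt7b* on chromosome 15 at 85419638 to 85466674 on the minus strand. *Lgr4* lies on chromosome 2 at 109747839 to 109844609 on the plus strand, *Lgr5* on chromosome 10 at 115286216 to 115423685 on the minus strand and *Lgr6* on chromosome 1 at 134911039 to 135033100 on the minus strand. *Lef1* lies on chromosome 3 at 130903919 to 131018005 on the plus strand, *Tcf7* on chromosome 11 at 52143107 to 52174619 on the minus strand, *Tcf7l1* on chromosome 6 at 72603354 to 72766589 on the minus strand and *Tcf7l2* on chromosome 19 at 55730188 to 55922091 on the plus strand. *Axin2* lies on chromosome 11 at 108811169 to 108841609 on the plus strand. Counts cover the exons of a whole gene and do not separate isoforms. Each of the 10 shares exonic bases with a noncoding gene on the opposite strand in that annotation, with 35 to 1518 bases shared per pair and the most for *Lef1* and *Lef1os1*. For *Lgr5* and *Gm66839* it is 749 bases. The libraries were stranded, but the strand setting of the counting is not given in the sources used here, and reads of such partners could not be told apart without it.

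RefSeq promoters, read in GRCm38.p6, were at hand for 8 of the 10 genes at 13 start sites. The 250 bases before each start were searched on both strands for TCF/LEF motifs: the form CTTTGAA, the form CTTTGAT, the form CTTTGTT and the form CTTTGTA, which share their opening letters. A match was found in 2 of the 13 windows, while 14.8% of all 32851 promoter windows held one. Both lie before a downstream start, of *Lef1* and of *Tcf7l2*, and they are shown with the match in capitals; that of *Lef1* is on the antisense strand, 147 bases before the start, and that of *Tcf7l2* is 14 bases before it. The windows of *Wnt7a*, the gene of the 10 with the largest tested fall in differentiating *Kat6a*-/- cells, and of *Axin2*, the feedback gene, are shown beside them and held no match. Gene-level counts cannot say which start was used. All are written 5′ to 3′ on the strand of the gene.
*Lef1*, chr3:131156044-131156293, plus strand: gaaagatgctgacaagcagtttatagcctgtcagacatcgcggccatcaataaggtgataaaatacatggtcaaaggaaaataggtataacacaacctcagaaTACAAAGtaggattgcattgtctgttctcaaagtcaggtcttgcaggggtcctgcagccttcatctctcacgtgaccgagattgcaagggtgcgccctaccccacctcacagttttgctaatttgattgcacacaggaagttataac
*Tcf7l2*, chr19:55895071-55895320, plus strand: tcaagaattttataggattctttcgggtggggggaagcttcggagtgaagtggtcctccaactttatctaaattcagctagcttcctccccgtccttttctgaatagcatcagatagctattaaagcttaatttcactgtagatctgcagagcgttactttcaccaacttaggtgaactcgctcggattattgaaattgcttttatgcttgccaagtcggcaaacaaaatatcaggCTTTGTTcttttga
*Wnt7a*, chr6:91411354-91411603, minus strand: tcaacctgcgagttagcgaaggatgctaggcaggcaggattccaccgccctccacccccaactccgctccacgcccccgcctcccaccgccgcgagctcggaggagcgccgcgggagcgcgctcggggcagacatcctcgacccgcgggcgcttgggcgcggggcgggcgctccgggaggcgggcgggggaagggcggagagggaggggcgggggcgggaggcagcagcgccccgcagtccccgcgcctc
*Axin2*, chr11:108920099-108920348, plus strand: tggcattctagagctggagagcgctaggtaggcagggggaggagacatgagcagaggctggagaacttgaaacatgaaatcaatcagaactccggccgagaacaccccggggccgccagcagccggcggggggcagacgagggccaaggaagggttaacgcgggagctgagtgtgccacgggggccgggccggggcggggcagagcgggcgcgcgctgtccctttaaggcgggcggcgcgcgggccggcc

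Total counts ranged from 7826660 to 40838203 per library, and levels are given as CPM, counts scaled to library size, scaled by the trimmed mean of M-values (TMM) over all 24 libraries. A difference is a log2 fold change with its standard error, called where the false discovery rate (FDR) over all protein-coding genes tested was under 0.05. Between *Kat6a*-/- and wildtype 30.0% of all genes tested were called in proliferating and 54.4% in differentiating cells. The marker counts below stand beside these shares. Of 10 progenitor markers *Sox2* was at 247 to 499 CPM in all libraries, while *Hes5* was at 0.688 to 3.29 CPM in differentiating *Kat6a*-/- and at 11.6 to 54.8 in wildtype; 3 of the 10 were higher and 5 lower in that contrast, and 2 higher and 3 lower in proliferating cells. Counts of *Kat6a* itself, which include exons outside the deletion and so do not check it, were 334 to 389 CPM in proliferating *Kat6a*-/- libraries beside 373 to 409 in wildtype, and 160.0 to 253 beside 239 to 292 in differentiating cells. Of the 4 differentiating *Kat6a*-/- libraries replicates 1 and 3 were close to each other over all genes (chi-square per degree of freedom 14.6), replicate 2 stood far from both (181 and 163), and replicate 4 lay between, at 70.9, 54.7 and 49.5 from replicates 1, 2 and 3. *Gfap*, an astrocyte intermediate filament gene, was at 148.0 and 256 CPM in replicates 1 and 3 and at 1905 and 992 in replicates 2 and 4. The summed level of 10 dividing-cell markers was 109 to 286 CPM in these 4 libraries and 729 to 1228 CPM in differentiating wildtype, with 10 of 10 markers lower. In proliferating *Kat6a*-/- cells this sum was 1793 to 3212 CPM beside 3277 to 3643 CPM, with 5 of 10 lower, and the sum of 7 astrocyte markers was 426 to 563 CPM beside at most 248.5 CPM in wildtype, with 4 of 6 tested higher. Most of the latter sum was *Aldoc*, *Slc1a2* and *Gja1*, with means of 233, 117 and 115 CPM in *Kat6a*-/-. *Gfap* and *Aqp4* were at most at 6.57 and 1.10 CPM there, and *Aldh1l1* went the other way, with a mean of 4.55 CPM beside 16.2 in wildtype. In differentiating cells the sum of 10 mesenchymal and meningeal markers was 164 to 573 CPM in *Kat6a*-/- and 124 to 170.0 CPM in wildtype libraries. Of the 5 tested 5 were higher, and 2 without the quality weights described below (23.2% of all genes called). Without *Kat6a*-/- replicate 1 it was 1 of 5 (9.01% of all genes), and without replicate 3 it was 0 of 5 (6.99%). *Prrx1* had the highest mean of that list, at 120 to 296 CPM in these *Kat6a*-/- and 86.0 to 103 CPM in wildtype libraries. In these 4 *Kat6a*-/- libraries *Col1a1* was at 9.24 to 176 CPM, *Dcn* and *Col3a1* were at most at 0.964 and 0.783 CPM, and *Lum* was at 0. The sum of 6 microglial markers was 6.38 to 8.25 CPM in proliferating *Kat6a*-/- and 1.26 to 1.41 in wildtype cells, nearly all of it *P2ry12* (log2 difference 2.51 ± 0.24, FDR = 1.9e-05), while *C1qa* and *Trem2* were at 0 in all 24 libraries. The sum of 5 endothelial markers was 10.6 to 36.8 CPM in differentiating *Kat6a*-/- and 46.4 to 72.9 in wildtype cells, nearly all of it *Kdr* (-2.52 ± 0.35, FDR = 9.9e-05), while *Cldn5* was at 0 in all differentiating libraries. In the differentiating fit library quality weights gave *Kat6a*-/- replicate 3 69.0% of its group's weight and replicate 2 4.22%, and so calls in differentiating *Kat6a*-/- cells are also given without the weights where that ended them. Of 8 neuron markers 2 were higher and 4 lower in differentiating *Kat6a*-/- cells (1 and 3 without the weights). Of 6 oligodendrocyte lineage markers tested 1 was higher and 4 lower (0 and 2). *Dcx* was at 0.963 to 7.86 CPM beside 15.0 to 70.6 in wildtype, while *Map2*, the highest neuron marker, was at 392 to 721 beside 440 to 493. The study found fewer cells with a neuronal marker protein in differentiating *Kat6a*-/- cultures and names this as a caveat. The part of any of these features in the differences below was not tested.

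**Figure D1:**
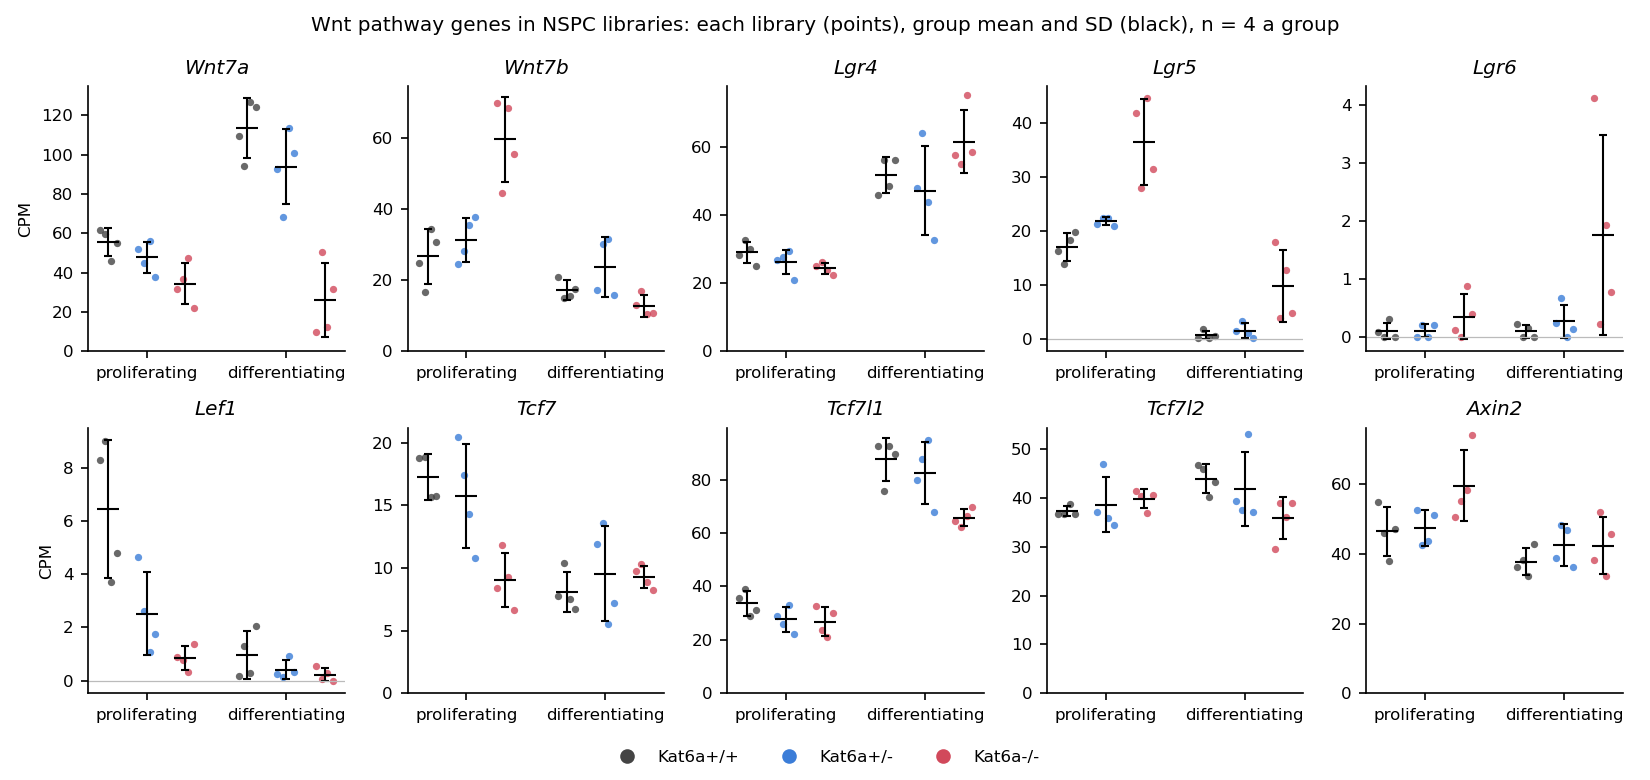
CPM of the 10 Wnt pathway genes in 6 groups, with each library as a point and the mean and SD of 4 libraries in black; the axis starts at or just under 0 in each panel. *Lgr5* and *Wnt7b* of proliferating *Kat6a*-/- cells sit above every wildtype point, and *Wnt7a* of differentiating *Kat6a*-/- cells sits below every other differentiating point.

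In proliferating cells 6 of the 9 genes tested were called between *Kat6a*-/- and *Kat6a*+/+ NSPCs, 3 higher (*Wnt7b*, *Lgr5*, *Axin2*) and 3 lower (*Lef1*, *Tcf7*, *Wnt7a*), and 30.0% of all 12276 genes tested were called in that contrast. The median log2 fold change of the 9 was -0.21, beside -0.0045 over all genes. *Lgr6* did not pass the filter on low counts. The ranges of the 4 *Kat6a*-/- and 4 wildtype libraries did not overlap for 4 of the 10 genes (*Lgr5*, *Wnt7b*, *Lef1*, *Tcf7*), beside 31.3% of all genes tested. In differentiating cells this held for 3 of the 9 genes besides *Lgr5* (*Wnt7a*, *Tcf7l1*, *Tcf7l2*), beside 26.9% of all genes tested. In differentiating cells *Lef1* did not pass that filter, and *Lgr6* passed it mainly through the *Kat6a*-/- libraries, so it is left out of the count. Of the other 7 genes besides *Lgr5* 5 were called, *Lgr4* higher and *Wnt7a*, *Wnt7b*, *Tcf7l1* and *Tcf7l2* lower, in a contrast in which 54.4% of 13339 genes were called. Without the quality weights 2 of the 7 and 23.2% of all genes were called. Without *Kat6a*-/- replicate 1 (9.01% of all genes) or without replicate 3 (6.99%) *Wnt7a* was the 1 gene of the 10 besides *Lgr5* that was called. Between *Kat6a*-/- and *Kat6a*+/- cells 4 of 9 were called in proliferating cells (14.8% of all genes) and 4 of 7 besides *Lgr5* and *Lgr6* in differentiating cells (37.5% of all genes). Without the quality weights at most 2 of the latter 7 were called (12.1% of all genes). Between *Kat6a*+/- and *Kat6a*+/+ cells limma called 0 of 9 in proliferating cells (0.00% of all genes) and 0 of 9 in differentiating cells (0.00% of all genes), where an unadjusted p under 0.05 was found for 2 and 1 of the 9 and for 912 and 1926 genes in all. The 1 in differentiating cells was *Lgr5*, whose wildtype values there entered the choice of the set, and those 9 include *Lgr6*. DESeq2 called 28 and 8 genes there, none of them one of the 10, and edgeR called 0 and 0. The comparisons of both mutant genotypes share the wildtype libraries. In bulk RNA fewer cells of a type and less RNA per cell cannot be told apart.

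**Figure D2:**
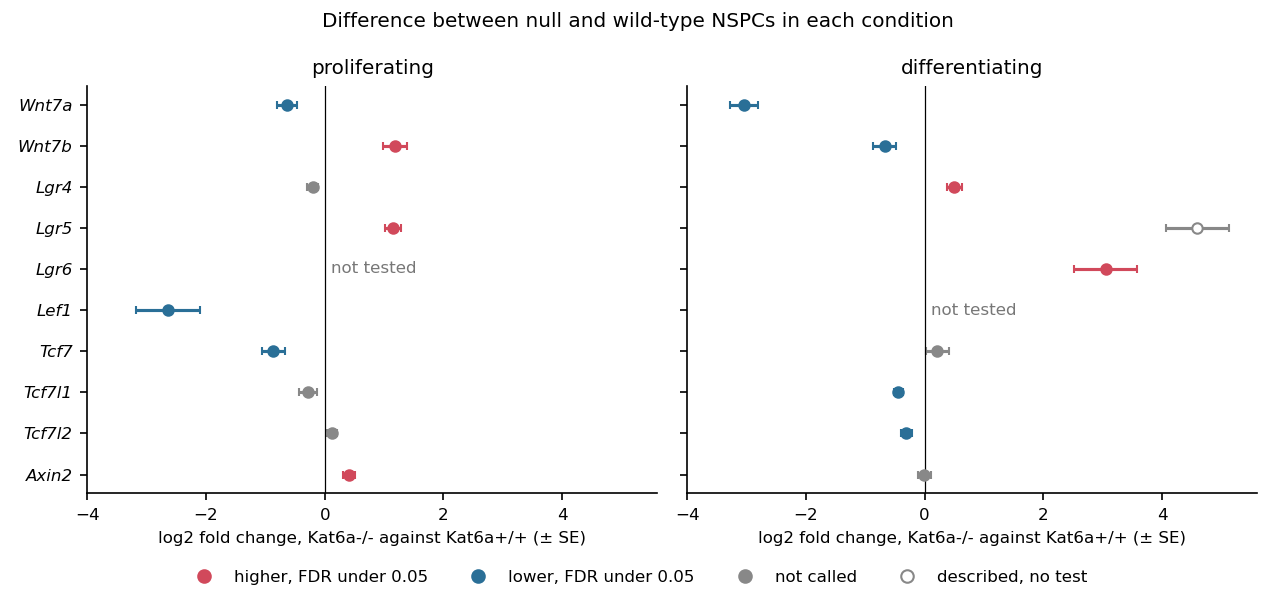
Log2 fold change of *Kat6a*-/- against *Kat6a*+/+ with its standard error for the 10 genes, in proliferating and in differentiating cells, from 4 libraries a group. *Wnt7b* lies right of 0 in proliferating and left of 0 in differentiating cells, *Wnt7a* lies left of 0 in both, and the open circle is the *Lgr5* value by which the set was chosen. *Lgr6* of differentiating cells passed the filter mainly through the *Kat6a*-/- libraries, so its filled colour is not to be read as a call.

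The ligand genes went opposite ways in proliferating *Kat6a*-/- cells. *Wnt7b* was at 70.1, 44.7, 68.5 and 55.6 CPM in the 4 *Kat6a*-/- libraries, at 24.5, 28.2, 35.5 and 37.8 in the *Kat6a*+/- libraries and at 24.8, 16.8, 34.6 and 31.0 in the wildtype libraries. Every *Kat6a*-/- library was above every other proliferating library, and the mean was 2.23-fold that of wildtype (log2 difference 1.19 ± 0.20 SE, FDR = 0.0013). Within each of the 2 litters that held both genotypes the ratio to wildtype was 1.66 and 2.21. In differentiating cells the order turned: *Wnt7b* was at 13.1, 17.1, 10.5 and 10.7 CPM in *Kat6a*-/-, at 17.2, 30.4, 31.6 and 15.9 in *Kat6a*+/- and at 21.0, 14.9, 15.6 and 17.6 in wildtype libraries. The ranges of *Kat6a*-/- and wildtype overlapped, with a log2 difference of -0.68 ± 0.19 (FDR = 0.0088) that was -0.44 with FDR = 0.217 without the quality weights. Leaving out single libraries moved it to between -0.76 and -0.25. Within the 2 litters that held both genotypes the ratio to wildtype was 0.967 and 0.596. The difference between both genotype effects, tested as the interaction of genotype and condition, was -1.69 ± 0.35 (FDR = 0.0032).

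*Wnt7a* was lower in *Kat6a*-/- cells under both conditions. In differentiating cells it was at 9.84, 50.3, 12.4 and 31.5 CPM in the *Kat6a*-/- libraries, at 92.8, 68.1, 113 and 101 in *Kat6a*+/- and at 110.0, 94.1, 127 and 124 in wildtype. All 4 *Kat6a*-/- libraries were below all others, and replicates 1 and 3, the pair with low *Gfap*, were the lowest. The unweighted mean was 4.37-fold lower than in wildtype, and the weighted log2 difference was -3.04 ± 0.24 (FDR = 2.8e-06). In that fit replicate 3, at 12.4 CPM, held 69.0% of the group's weight and replicate 2, at 50.3 CPM, held 4.22%. The *Wnt7a* call was the 1 of these differentiating calls that held in all 21 alternative settings. There the log2 difference was from -3.23 to -2.00, with a largest FDR of 0.0195. Without *Kat6a*-/- replicate 3 it was -2.00 and without replicate 1 -2.15. In the 2 litters with both genotypes wildtype was 4.22 and 10.0 times as high. Against *Kat6a*+/- the difference was -2.73 ± 0.28 (FDR = 5.3e-05), a call that was lost without *Kat6a*-/- replicate 3 (-1.71, FDR = 0.0740).

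In proliferating cells *Wnt7a* was at 31.6, 36.6, 47.5 and 22.2 CPM in *Kat6a*-/- beside 61.8, 59.9, 45.8 and 55.2 in wildtype. These ranges overlapped through 1 library each, and the log2 difference was -0.64 ± 0.17 (FDR = 0.013). The fall was larger in differentiating cells. In the fit of both conditions, made without quality weights, the interaction was -1.62 ± 0.47 (FDR = 0.025). It no longer passed when proliferating *Kat6a*-/- replicate 3 was left out (FDR = 0.0548), when differentiating *Kat6a*-/- replicate 3 was left out (FDR = 0.0574) or when litters were given fixed effects (FDR = 0.0630).

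Of the LGR genes *Lgr6* stood far below the other two in proliferating wildtype cells. Per length, as RPKM, that is CPM divided by gene length in kilobases, *Lgr4* was at 5.75 ± 0.63 (SD, n = 4) in proliferating wildtype cells, *Lgr5* at 3.62 ± 0.54 and *Lgr6* at 0.013 ± 0.020. In differentiating wildtype cells *Lgr4* was at 10.2 ± 1.04, *Lgr5* at 0.158 ± 0.167 and *Lgr6* at 0.013 ± 0.015.

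*Lgr5*, a marker of Wnt-driven stem cells in gut and skin, was higher in proliferating *Kat6a*-/- cells than in both other genotypes. It was at 16.3, 13.9, 18.3 and 19.8 CPM in wildtype, at 21.3, 22.4, 22.4 and 21.0 in *Kat6a*+/- and at 41.9, 28.0, 44.6 and 31.4 in *Kat6a*-/- libraries. None of the 3 ranges overlapped. *Kat6a*-/- exceeded wildtype by 1.15 ± 0.14 (FDR = 9.1e-05) and *Kat6a*+/- by 0.71 ± 0.13 (FDR = 0.0047), and the step from wildtype to *Kat6a*+/- was 0.45 ± 0.14 with FDR = 0.465 (unadjusted p = 0.0065 by limma across all genes). The *Kat6a*-/- against wildtype difference stayed between 1.05 and 1.27 in all 20 alternative settings. These libraries are not fully independent of the values that chose the set, since 3 of the 4 *Kat6a*-/- embryos also gave differentiating libraries.

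*Lgr5* was lower in differentiating than in proliferating cells of every genotype. In differentiating cells it was at 0.275, 1.91, 0.290 and 0.503 CPM in wildtype, from 5 to 35 counts, and at 1.45, 3.41, 1.17 and 0.202 CPM in *Kat6a*+/-. In *Kat6a*-/- libraries it was at 17.9, 3.88, 12.8 and 4.78 CPM, from 73 to 260 counts. These are the values by which the set was chosen: the *Kat6a*-/- mean was 13.2-fold that of wildtype, and the weighted log2 difference was 4.59 ± 0.53, or 3.63 without the quality weights. The lowest *Kat6a*-/- library, at 3.88 CPM, lay just above the highest *Kat6a*+/- library, at 3.41, and replicates 1 and 3 were the highest. *Kat6a*+/- and wildtype overlapped, with a log2 difference of 1.37 ± 0.57, also given as a description. Between the conditions the log2 difference was -4.31 ± 0.66 in *Kat6a*+/- (FDR = 7.8e-06). As a description it was -4.90 ± 0.75 in wildtype and -2.20 ± 0.34 in *Kat6a*-/-.

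*Lgr4*, which encodes a more broadly used R-spondin receptor, was at 57.8, 55.0, 75.3 and 58.5 CPM in differentiating *Kat6a*-/- and at 46.1, 56.3, 48.6 and 56.2 in wildtype libraries. The ranges overlapped, 3 of 4 *Kat6a*-/- libraries were above all wildtype ones, and the log2 difference of 0.50 ± 0.13 (FDR = 0.0059) was 0.25 with FDR = 0.335 without the quality weights. In proliferating cells it was -0.21 ± 0.10 (FDR = 0.134). In wildtype *Lgr4* rose on differentiation by 0.82 ± 0.15 (FDR = 5.5e-05).

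*Lgr6* was near the limit of detection. Proliferating libraries held 0 to 8 counts each. Differentiating *Kat6a*-/- libraries held 60, 4, 32 and 12 counts (4.13, 0.212, 1.93 and 0.775 CPM) and wildtype libraries 4, 0, 3 and 0 counts. Replicate 2 of the *Kat6a*-/- group was within the wildtype range, and the other 3 were above it. *Lgr6* entered the fit mainly through these *Kat6a*-/- libraries, so its log2 difference of 3.05 is given with no test, and at such levels it depends on the prior count. It was 1.76 without *Kat6a*-/- replicate 1 and 1.81 without replicate 3.

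The TCF/LEF genes encode the DNA-binding partners of beta-catenin, and of these *Lef1* and *Tcf7*, whose products mostly act as activators, were lower in proliferating *Kat6a*-/- cells. *Lef1* was at 0.906, 0.773, 0.329 and 1.40 CPM in proliferating *Kat6a*-/- libraries, at 4.67, 2.61, 1.06 and 1.76 in *Kat6a*+/- and at 8.29, 9.02, 3.72 and 4.82 in wildtype. *Kat6a*-/- lay wholly below wildtype, and 3 of 4 *Kat6a*+/- libraries did. Counts in *Kat6a*-/- were 3 to 14 per library. The *Kat6a*-/- mean was 7.60-fold lower than in wildtype (log2 difference -2.64 ± 0.55, FDR = 0.0035), and in the litters with both genotypes wildtype was 4.43 and 14.7 times as high. For *Kat6a*+/- the difference from wildtype was -1.53 ± 0.38 with FDR = 0.388 (unadjusted p = 0.0013 by limma across all genes), and for *Kat6a*-/- against *Kat6a*+/- it was -1.11 ± 0.57 (FDR = 0.192). In differentiating cells *Lef1* was at 0.165 to 2.05 CPM in wildtype and at 0 to 0.550 in *Kat6a*-/-, with 0 to 8 counts in the latter.

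*Tcf7*, which encodes TCF1, was at 8.38, 11.9, 9.31 and 6.68 CPM in proliferating *Kat6a*-/- and at 18.8, 18.9, 15.7 and 15.7 in wildtype libraries, with no overlap. The log2 difference was -0.87 ± 0.19 (FDR = 0.0047), and against *Kat6a*+/- it was -0.74 ± 0.19 (FDR = 0.020). Leaving out heterozygous replicate 1 ended the latter call (FDR = 0.0552), as did leaving out null replicate 1 (FDR = 0.0620) and null replicate 4 (FDR = 0.105). In differentiating cells *Tcf7* was at 9.77, 10.3, 8.86 and 8.27 CPM in *Kat6a*-/-, within or near the wildtype values of 7.76, 10.4, 7.53 and 6.75, and the difference was 0.22 ± 0.19 (FDR = 0.353). *Tcf7* fell on differentiation in wildtype by 1.17 on the log2 scale (FDR = 3.3e-05), whereas the change in *Kat6a*-/- cells was 0.09 ± 0.28 (FDR = 0.793). The interaction was 1.26 ± 0.35 (FDR = 0.019); it missed the threshold when any of 3 proliferating libraries was left out, with FDR = 0.0538 for wildtype replicate 1, FDR = 0.0504 for null replicate 1 and FDR = 0.0663 for null replicate 4.

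*Tcf7l1*, which encodes TCF3, known chiefly as a repressor of Wnt targets, was the highest TCF/LEF gene per length, at 30.4 ± 2.77 RPKM in differentiating wildtype cells. It was at 64.6, 62.2, 66.3 and 69.7 CPM in differentiating *Kat6a*-/- libraries and at 92.6, 75.8, 92.4 and 89.5 in wildtype, without overlap. The log2 difference was -0.45 ± 0.07 (FDR = 3.3e-04), and -0.41 with FDR = 0.0157 without the quality weights. The call was lost without *Kat6a*-/- replicate 1 (FDR = 0.0647) or replicate 3 (FDR = 0.0873), while the difference stayed at -0.48 and -0.49. *Tcf7l1* rose on differentiation by 1.35 ± 0.12 in wildtype (FDR = 3.8e-09). In proliferating cells the genotype difference was -0.28 ± 0.15 (FDR = 0.163).

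*Tcf7l2*, which encodes TCF4, was at 36.6 to 38.7 CPM in proliferating wildtype and 36.9 to 41.4 in *Kat6a*-/- libraries (0.12 ± 0.09, FDR = 0.309). In differentiating cells it was at 29.6, 38.9, 36.0 and 38.8 CPM in *Kat6a*-/- and at 46.6, 45.8, 40.1 and 43.2 in wildtype, without overlap, and the difference of -0.31 ± 0.10 (FDR = 0.016) was -0.30 with FDR = 0.105 without the quality weights.

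*Axin2* was at 50.6, 55.3, 58.5 and 74.1 CPM in proliferating *Kat6a*-/- libraries, at 52.5, 42.5, 43.6 and 51.3 in *Kat6a*+/- and at 54.9, 46.1, 37.9 and 47.1 in wildtype. The ranges overlapped, 3 of 4 *Kat6a*-/- libraries were above all wildtype ones, and the log2 difference was 0.41 ± 0.10 (FDR = 0.011). The call was lost without *Kat6a*-/- replicate 4 (0.28, FDR = 0.0883). In differentiating cells *Axin2* was at 33.7 to 52.1 CPM in *Kat6a*-/- and at 33.5 to 42.8 in wildtype, and the difference was -0.0050 ± 0.104 (FDR = 0.972). Its sign changed in 10 of 21 alternative settings, which ran from -0.17 to 0.36 without a call. The unweighted means were 42.4 and 37.7 CPM, and in the 2 litters with both genotypes the ratio to wildtype was 1.35 and 0.788. *Nkd1*, another feedback inhibitor of the pathway, was not one of the 10 and was lower in *Kat6a*-/- cells under both conditions, with a log2 difference of -0.77 ± 0.13 in proliferating (FDR = 8.2e-04) and of -1.55 ± 0.12 in differentiating cells (FDR = 3.0e-06).

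Per length, *Wnt7a* was the highest of the 10 in wildtype cells of both conditions, at 17.6 ± 2.27 RPKM in proliferating and 36.0 ± 4.79 in differentiating cells, and did not overlap *Tcf7l1*, next at 11.7 ± 1.61, in proliferating cells but did in differentiating cells. *Axin2* (8.93 ± 1.33) and *Tcf7l2* (8.04 ± 0.22) followed in proliferating wildtype cells and overlapped each other, and *Axin2* also overlapped *Tcf7l1* and *Wnt7b*. The next 3 also overlapped: *Tcf7* (6.31 ± 0.66), *Wnt7b* (6.07 ± 1.77) and *Lgr4*. *Lgr5* came next and overlapped *Wnt7b*, and *Lef1* (1.64 ± 0.66) lay below *Lgr5* without overlap. In proliferating *Kat6a*-/- cells *Wnt7b*, at 13.5 ± 2.70 RPKM, was the highest, and it overlapped *Axin2* (11.5 ± 1.96), *Wnt7a* (10.9 ± 3.33) and *Tcf7l1* (9.33 ± 1.84).

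The change from proliferating to differentiating called 7 of the 10 genes in wildtype (72.9% of 13590 genes tested), 6 of 10 in *Kat6a*+/- (69.7%) and 5 of 9 besides *Lgr5* in *Kat6a*-/- cells (69.2%). The wildtype 7 include *Lgr5*, whose differentiating wildtype values entered the choice of the set. Each of these counts has *Lgr6*, which was not called, among its genes, and *Lgr6* passed the filter mainly through *Kat6a*-/- libraries. *Lgr4* and *Tcf7l1* rose and *Lef1* fell in all 3 genotypes. *Wnt7a* rose in wildtype (1.01 ± 0.28, FDR = 0.0031) and *Kat6a*+/- cells (0.96 ± 0.30, FDR = 0.0069) and had a difference of -0.61 ± 0.37 in *Kat6a*-/- cells (FDR = 0.153). *Wnt7b* fell in *Kat6a*-/- cells by 2.21 on the log2 scale (FDR = 2.0e-07), and its difference was -0.53 ± 0.24 in wildtype (FDR = 0.0548). The interaction of *Kat6a*-/- and condition called 3 of 9 genes besides *Lgr5* (*Tcf7*, *Wnt7a*, *Wnt7b*), with *Lgr6* among the 9, beside 13.9% of all genes tested. In *Kat6a*-/- cells the *Lef1* call (FDR = 0.046) and in wildtype the *Axin2* call (FDR = 0.048) lay at the threshold and were lost in 10 and 26 of 32 alternative settings.

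By their labels 6 embryos were sampled in both conditions. The embryo numbers of wildtype replicate 2 in the proliferating and differentiating groups differ by 2 swapped digits and were treated as separate embryos and litters. *Lgr5* was 59.1- and 63.2-fold higher in the proliferating library of the 2 wildtype embryos, 15.5-fold in the *Kat6a*+/- embryo and 7.22-, 3.47- and 6.57-fold in the 3 *Kat6a*-/- embryos. *Wnt7b* was 1.19- and 2.21-fold higher in the proliferating library in wildtype and 2.62-, 6.54- and 5.19-fold in *Kat6a*-/- embryos. The *Wnt7a* ratio of differentiating to proliferating was 1.77 and 2.77 in wildtype, 1.66 in *Kat6a*+/- and 1.38, 0.261 and 1.42 in *Kat6a*-/- embryos, so that 1 of 3 *Kat6a*-/- embryos, the one of replicate 3, went the other way. The *Tcf7* ratio was 0.413 and 0.480 in wildtype and 0.869, 0.952 and 1.24 in *Kat6a*-/- embryos.

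**Figure D3:**
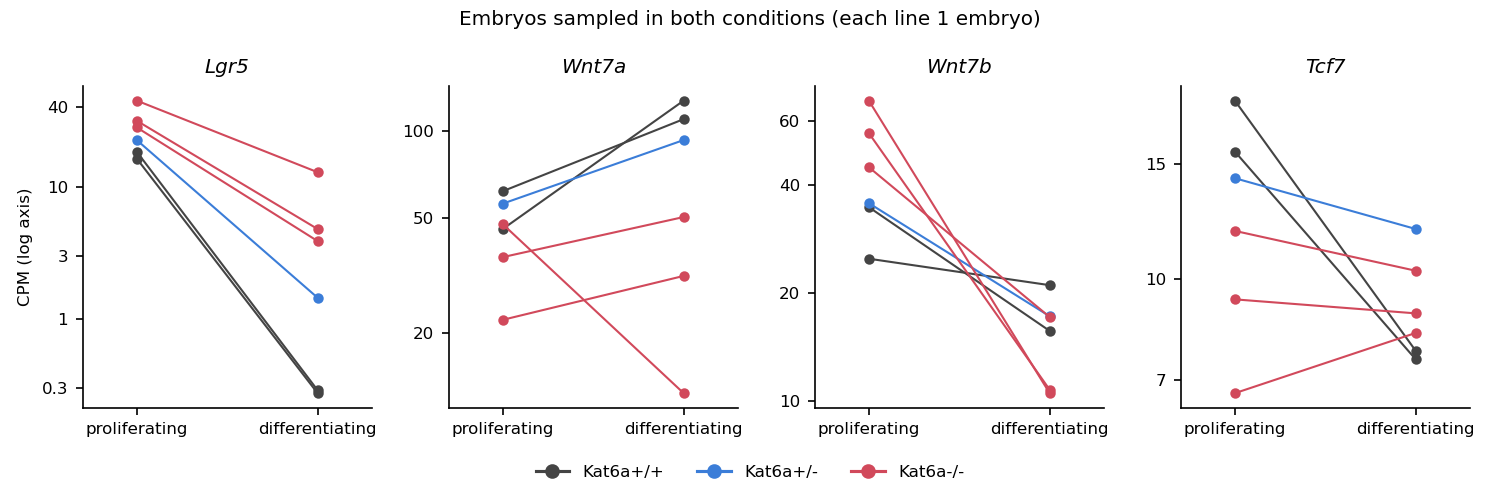
CPM on a log axis in the proliferating and differentiating library of 6 embryos, 1 line an embryo, for *Lgr5*, *Wnt7a*, *Wnt7b* and *Tcf7*. The *Lgr5* lines of the 3 *Kat6a*-/- embryos lie above the wildtype lines at both ends, and the *Wnt7b* lines of *Kat6a*-/- start above the wildtype lines and end at 10.5 to 17.1 CPM, beside 15.6 and 21.0 in wildtype.

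Across the 12 differentiating libraries, which share culture conditions and hold 3 genotypes, the genes most like *Lgr5* in log2 CPM among 13338 others were *Zdhhc8* (Pearson r = 0.976, Spearman rho = 0.937), *Map7d1* (0.970 and 0.965), *Pdlim7* (0.970 and 0.979), *Cebpd* (0.969 and 0.972) and *Rps6ka4* (0.967 and 0.944). Of the other members *Lgr6* (r = 0.767, rho = 0.685) and *Lgr4* (r = 0.754, rho = 0.783) moved with it and *Wnt7a* against it (r = -0.901, rho = -0.881). The genotypes differ in level, so these values describe the libraries and carry no test.

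**Figure D4:**
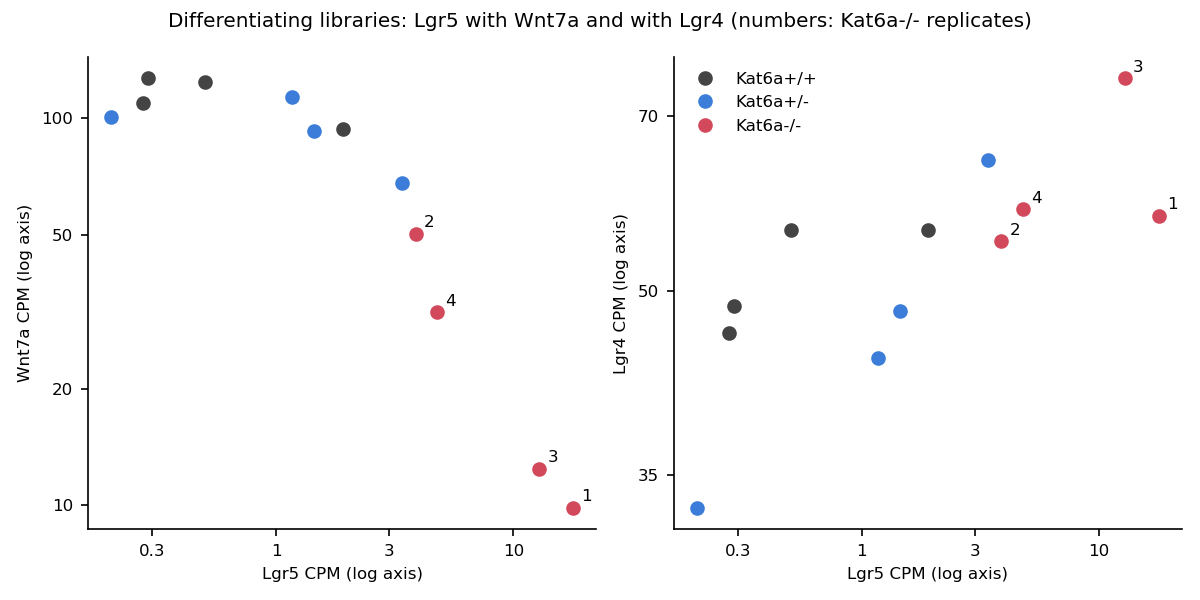
*Lgr5* CPM against *Wnt7a* CPM and against *Lgr4* CPM in the 12 differentiating libraries, both axes on a log scale, with the *Kat6a*-/- replicates numbered. Replicates 1 and 3 have the highest *Lgr5* (17.9 and 12.8 CPM) and the lowest *Wnt7a* (9.84 and 12.4 CPM).

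Of 91 other genes of the pathway, in 8 lists, 63 were tested in proliferating cells and 18 were called between *Kat6a*-/- and wildtype, 7 higher and 11 lower, with a median log2 difference of -0.10. That is 28.6%, near the 30.0% of all genes. In differentiating cells 70 were tested and 45 called, 24 higher and 21 lower, with a median of 0.07, or 64.3% beside 54.4% of all genes. Without the quality weights 18 were called (25.7%, beside 23.2% of all genes), and without *Kat6a*-/- replicate 1 or without replicate 3 6 of 71 were called (8.45%, beside 9.01% and 6.99% of all genes).

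The R-spondin genes, whose products are the LGR ligands, were low. The 4 R-spondin genes and *Rnf43* did not pass the filter in either condition, and the highest value of any R-spondin gene was that of *Rspo1* in 1 differentiating *Kat6a*-/- library, at 2.23 CPM (42 counts). *Znrf3*, the ligase gene that was expressed, was higher in proliferating *Kat6a*-/- cells (0.43 ± 0.07, FDR = 0.0010) and had a difference of 0.19 ± 0.09 in differentiating cells (FDR = 0.082). *Wls*, which carries Wnt ligands to the surface, was higher in proliferating (0.48 ± 0.09, FDR = 0.0016) and in differentiating cells (0.77 ± 0.13, FDR = 4.5e-04). The latter was 0.49 with FDR = 0.123 without the quality weights.

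Of 17 receptor and co-receptor genes 3 were lower and 0 higher in proliferating *Kat6a*-/- cells, where 30.0% of all genes were called. Among the lower ones were *Fzd10* (-1.31 ± 0.22, FDR = 0.0012) and *Fzd8* (-0.61 ± 0.19, FDR = 0.025). The *Fzd8* call was lost without *Kat6a*-/- replicate 1 (FDR = 0.0720) or replicate 3 (FDR = 0.0650) and when litters were given fixed effects (FDR = 0.183). In differentiating cells 11 were higher and 2 lower, where 3562 of all 13339 genes were higher and 3696 lower. Without the quality weights 3 were higher and 1 lower (23.5%, beside 23.2% of all genes). Without *Kat6a*-/- replicate 1 or replicate 3 1 was higher and 1 lower (11.8%, beside 9.01% and 6.99% of all genes). *Fzd6* was higher (1.70 ± 0.15, FDR = 4.9e-06) and *Fzd10* lower (-2.15 ± 0.16, FDR = 2.5e-06), the latter by -1.32 without *Kat6a*-/- replicate 3. *Adgra2* and *Reck*, which encode the partners that make a receptor complex specific to WNT7 ligands, were among those higher, at 1.20 ± 0.22 (FDR = 6.4e-04) and 0.42 ± 0.13 (FDR = 0.016). Both calls were lost without the quality weights, at 0.85 (FDR = 0.110) and 0.16 (FDR = 0.569).

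Most secreted antagonists bind Wnt ligands or their receptors. In proliferating cells *Sfrp1* (-3.36 ± 0.47, FDR = 2.9e-04) and *Sfrp4* (-1.29 ± 0.29, FDR = 0.0055) were lower and *Dkk3* (2.22 ± 0.36, FDR = 7.6e-04) and *Frzb* (1.58 ± 0.31, FDR = 0.0026) higher. These were 4 of 8 tested, beside 30.0% of all genes. *Sfrp1* was at 0.340 to 0.876 CPM in the 4 *Kat6a*-/- libraries and at 5.63 to 13.3 CPM in wildtype. In differentiating cells *Sfrp4* was higher (3.34 ± 0.30, FDR = 5.3e-06; 2.12 without *Kat6a*-/- replicate 3), as was *Dkk3* (3.39 ± 0.88, FDR = 0.0063), and *Draxin*, an antagonist that also guides axons, was lower (-2.20 ± 0.34, FDR = 1.9e-04). Without the quality weights *Dkk3* was at 2.63 (FDR = 0.139) and *Draxin* at -1.61 (FDR = 0.0506). The *Dkk3* call was lost in 7 of 21 alternative settings, and leaving out single libraries took its difference as low as 0.75. *Dkk3* was at 54.6, 5.15, 133 and 23.2 CPM in differentiating *Kat6a*-/- libraries and at 0.922 to 13.1 in wildtype, so that replicate 2 lay within the wildtype range. *Sfrp4* was called in both conditions with opposite signs, and the difference between its effects was not tested.

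Within the cell, *Ctnnb1*, which encodes beta-catenin, was 0.16 ± 0.06 higher in proliferating *Kat6a*-/- cells (FDR = 0.042) and differed by -0.01 ± 0.07 in differentiating cells (FDR = 0.898). Of 13 genes of beta-catenin and its destruction complex 1 was higher, *Ctnnb1* itself, and 3 were lower in proliferating cells, where 30.0% of all genes were called. In differentiating cells 1 was higher and 8 lower (69.2%, beside 54.4% of all genes). Without the quality weights 0 were higher and 3 lower (23.1%, beside 23.2% of all genes). Without *Kat6a*-/- replicate 1 or replicate 3 0 were higher and 0 lower. Of 13 nuclear partners of TCF/LEF 1 was higher and 2 lower in proliferating cells, beside 30.0% of all genes called. In differentiating cells 2 were higher and 6 lower (61.5%, beside 54.4% of all genes). The lower ones included the co-repressor gene *Tle1* (-1.34 ± 0.16, FDR = 4.0e-05). Without the quality weights 0 were higher and 5 lower (38.5%, beside 23.2% of all genes). Without *Kat6a*-/- replicate 1 or replicate 3 0 were higher and 2 lower (15.4%, beside 9.01% and 6.99% of all genes). Of 8 other feedback and target genes *Tnfrsf19* (0.85 ± 0.13, FDR = 5.7e-04) was higher and *Nkd1* lower in proliferating cells. In differentiating cells *Ccnd1*, the cyclin D1 gene (3.34 ± 0.47, FDR = 1.1e-04), and *Notum*, a Wnt-inactivating enzyme gene (2.38 ± 0.47, FDR = 0.0010), were higher. *Ccnd1* was at 499, 20.5, 262 and 77.7 CPM in the *Kat6a*-/- libraries and at 17.8 to 51.4 CPM in wildtype, so that replicate 2 lay within the wildtype range. Without the quality weights *Ccnd1* was at 2.24 (FDR = 0.0775) and *Notum* at 1.80 (FDR = 0.0857).

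**Figure D5:**
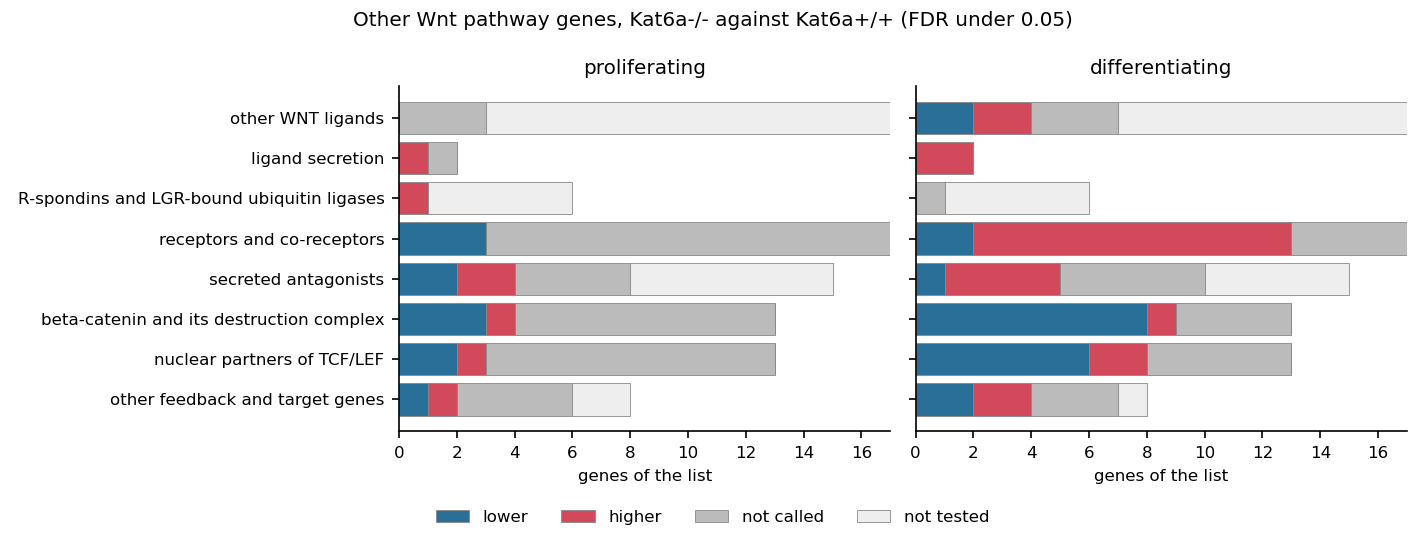
Number of genes in 8 lists of other Wnt pathway genes that were lower, higher, not called or not tested between *Kat6a*-/- and *Kat6a*+/+, in proliferating and differentiating cells. In the receptor list 3 genes are lower in proliferating cells, and 11 are higher in differentiating cells.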

How the data were processed

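Poly(A) RNA, 200 ng per library, was made into stranded libraries. The authors aligned the reads to mm39 and deposited raw counts per gene from featureCounts with RefSeq annotation, whose date the study states, beside each gene's length in bases. Tool versions for the RNA reads and the strand setting are not given in the sources used here. Totals were 7826660 to 40838203 counts.

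Following the study, protein-coding genes (by RefSeq biotype) past filterByExpr were tested without *Xist* and Y-linked genes, after TMM scaling, in R 4.3.3 with limma 3.58.1 and edgeR 4.0.16. The sets of genes tested were slightly larger than those the study states. For *Kat6a*-/- against wildtype 7258 genes were called in differentiating cells, more than the study reported, and 3686 in proliferating cells, slightly fewer. Shares of all genes called are those of the fits made here. Proliferating cells (12276 genes) were fitted by limma-voom with litter, the first part of the embryo number in the labels, as a random block (correlation 0.287). Differentiating cells (13339 genes) were fitted by limma-trend on log2 CPM (prior count 2) with library quality weights. Both conditions (13590 genes) were fitted by limma-voom with litter as a random block (correlation 0.0036) and no quality weights. Interactions therefore need not equal the gap between the effects of the separate fits. The 6 embryos sampled in both conditions were not paired in it, and embryo as a random block was among the alternatives. All used robust empirical Bayes and Benjamini-Hochberg adjustment. The scripts were tested on simulated data. Alternatives included edgeR's quasi-likelihood test and DESeq2 1.42.0.

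The 10 genes and the lists were chosen with earlier results of these data known. From the lists the 8 called genes of largest log2 fold change with mean log2 CPM over 0 were named in each condition, and *Znrf3*, *Rspo1*, *Rnf43*, *Wls*, *Adgra2*, *Reck*, *Ctnnb1* and *Tle1* were named for their role after their values were seen. Replicates were separate embryos; no pair of libraries within a group agreed within sampling noise (lowest chi-square per degree of freedom 5.55 over 36 pairs).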

Additional observations from a re-analysis of the deposited data

Results flagged for a closer look

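The effect of losing both *Kat6a* alleles differed between conditions for 3 genes by the interaction term of limma-voom over 24 libraries: *Wnt7b* (log2 difference of the effects -1.69), *Wnt7a* (-1.62) and *Tcf7* (1.26). In 3 of 60 groups of 4 libraries the CPM of 1 library stood apart from the other 3, by a gap that took up most of the group's range (Dixon's test at the 95% level), where chance gives about 1 in 20 groups. *Lgr5* was at 1.91 CPM in differentiating wildtype replicate 2, beside 0.275 to 0.503 in the other 3 (gap ratio 0.861). *Tcf7l2* was at 53.1 CPM in differentiating *Kat6a*+/- replicate 3, beside 37.1 to 39.4 (gap ratio 0.859), and at 38.7 CPM in proliferating wildtype replicate 3, beside 36.6 to 36.7 (gap ratio 0.953).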

How the results depend on the processing

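Of 83 recomputed counts of called genes that kept all libraries, 73 stayed within 1.5 times the reported count. The other 10 were all in differentiating cells. The counts there take in *Lgr6*, which passed the filter mainly through the *Kat6a*-/- libraries, and so they say nothing on *Lgr6* itself. Counted without it, 5 of 7 genes were called for *Kat6a*-/- against wildtype, and 2 of 7 without the quality weights. For *Kat6a*-/- against wildtype (6 called with *Lgr6*, and 54.4% of all genes) edgeR gave 3 (24.3% of all genes), DESeq2 3 (30.6%), litter as a fixed term 2 (13.4%), no quality weights 3 (23.2%), and litter as a random block without weights 3 (21.0%). For *Kat6a*-/- against *Kat6a*+/- (5 called with *Lgr6*, and 37.5%) the same settings gave 2 (12.4%), 3 (19.6%), 1 (2.89%), 2 (12.1%) and 1 (10.5%). Leaving out each library in turn gave 1 to 6 and 0 to 6 called genes for these comparisons, the lowest without *Kat6a*-/- replicate 3 (1 and 0, where 6.99% and 1.81% of all genes were called) or replicate 1 (1 and 1, with 9.01% and 2.57%), and 2 to 5 for *Kat6a*-/- against *Kat6a*+/- in proliferating cells (4 called), the lowest without *Kat6a*+/- replicate 1 or *Kat6a*-/- replicate 4. The cause was not tested. Counts of single lists without the weights or these replicates were added after seeing the data. For *Kat6a*-/- against wildtype in proliferating cells all 20 alternatives stayed at 5 or 6.

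Libraries of the same replicate number did not deviate together (at most 1 of 4 correlations over 0.1 in each pair of groups), so the number marks no pairing by itself. With it as a replicate block, and with *Lgr6* counted where tested, 6 genes were called for *Kat6a*-/- against wildtype in proliferating and 6 in differentiating cells. For *Kat6a*+/- against wildtype 0 and 0 were called, and for *Kat6a*-/- against *Kat6a*+/- 4 and 5. Between conditions 8 (*Lgr5* among them), 6 and 5 were called in wildtype, *Kat6a*+/- and *Kat6a*-/-, and 3 for the interaction. No called difference of the 10 genes changed sign in any setting. Genotypes were unevenly spread over litters, which the block takes up only in part. Low counts limit *Lgr6* and *Lef1*, and differentiating *Lgr5* in wildtype.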
